A study of Mus musculus with 6 samples.

Results

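The control libraries of the series, the 3 of its 6 libraries whose titles carry V without r1r2 (replicates 2, 3 and 4), hold messenger RNA of the suprachiasmatic nucleus (SCN), and were chosen from those titles alone. The mice were C57BL/6 females, killed in the dark at ZT 12 to 14 (zeitgeber time counts the hours from the onset of light), the early part of the active night of a mouse. The nucleus was punched with a needle from frozen coronal brain sections, and equal amounts of RNA of 2 SCN went into each library. The other 3 libraries, titled r1r2V, carry a deletion of both REV-ERB receptors in GABAergic neurons and are not compared here. The V libraries were read as the controls of that deletion. The labels do not give the alleles or any Cre driver of the V animals, their age, or whether the pools came from separate animals, so the spread between the 3 libraries may in part be technical. In bulk RNA of a punch, a low level from fewer cells of a type and from less RNA per cell cannot be told apart.

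The SCN is a small paired nucleus of the anterior hypothalamus, above the optic chiasm, and the central circadian clock of mammals. Most of its neurons release GABA together with neuropeptides: vasopressin marks the dorsal shell, and vasoactive intestinal peptide (VIP) and gastrin-releasing peptide mark the ventral core, where light input arrives. In each cell, BMAL1 (gene Arntl) and CLOCK activate Per, Cry, Nr1d1 and Nr1d2. PER and CRY proteins then block that activation, and REV-ERB and ROR receptors lower and raise Arntl. D-box factors such as DBP and TEF carry the rhythm to further genes.

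Each library listed between 16368 and 16508 genes, with total expected counts from 15729603 to 17780928. Together the 3 tables named 17167 genes, of which 15741 were in each. Levels are given in FPKM, fragments scaled by transcript length and by library size, which is per length and so lets genes be set side by side. Values of a gene are given for replicates 2, 3 and 4, in that order, and a mean ± SD has n = 3. The coefficient of variation (CV) is the SD over the mean, in percent. Pearson's r of log2(FPKM + 1) across genes was 0.996 for replicates 2 and 3, 0.998 for 2 and 4 and 0.996 for 3 and 4, a description, since genes are not independent replicates. Counts of each pair differed beyond sampling noise (chi-square per degree of freedom 5.00, 3.74 and 5.40), so the tables are not 1 library deposited repeatedly, which does not tell separate animals from separate libraries of 1 RNA.

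Replicate 3 stood apart from the others. Gh, which encodes growth hormone of the anterior pituitary, had 0, 567 and 0.08 FPKM, from 0, 8055 and 1 expected counts. Prl, the pituitary hormone prolactin, had 0.57, 535 and 0 FPKM, from 8, 7510 and 0 counts. Cga, the shared subunit of the pituitary glycoprotein hormones, had 0.19, 30.5 and 0 FPKM. All 3 genes were at or near 0 in replicates 2 and 4. Over a list of 12 pituitary hormones and factors, put together after these values were seen, summed FPKM was 8.34, 1470.2 and 26.3. Some genes of nuclei behind the SCN were also high there, though of the 15 peptides of neighbouring nuclei at 1 FPKM or more only 7 were highest in replicate 3 (46.7%, against 35.3% of all genes at that level). Pomc, the precursor of melanocortins in the arcuate nucleus and of pituitary corticotropin, had 5.81, 328 and 24.3 FPKM. Pmch, the melanin-concentrating hormone of the lateral hypothalamus, had 19.1, 331 and 35.8 FPKM. Nr5a1, a factor of the ventromedial nucleus and of pituitary gonadotropes, had 0.66, 8.68 and 2.39 FPKM, and a mean of 1.52 without replicate 3. Replicate 3 was highest for each of these genes, and its values do not overlap those of the other libraries. What carried these transcripts into that library was not tested.

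The 6 genes taken as SCN markers were listed in every library. Avp had a mean of 543 ± 115 FPKM, Gad1 149 ± 5.88, Vip 44.0 ± 13.2, Rgs16 24.8 ± 0.744, Six6 4.90 ± 1.84 and Lhx1 1.56 ± 0.0557. Rgs16, a regulator of G-protein signalling rhythmic in the dorsal SCN, had 25.4, 24.0 and 24.9 FPKM. Lhx1, a homeobox factor needed for SCN peptide expression, had 1.55, 1.62 and 1.51. These levels lay close together, with CVs of 3.00% and 3.57%. Six6, a homeobox factor of the developing eye and SCN, had 3.38, 6.95 and 4.37 FPKM. Replicate 3 was the highest, and without it the mean was 3.88. A list of Xist and the Y-linked Ddx3y, Uty, Kdm5d and Eif2s3y had no row in any V library, so it gives no check of the labelled sex.

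Among the 17167 genes, 12804 (74.6%) had a mean of 1 FPKM or more and 9433 of 5 or more. The 24 genes at 1000 FPKM or more held 8.11% of all FPKM, the 834 from 100 to 1000 held 46.6%, and the 6136 from 10 to 100 held 39.2%. The 100 most abundant genes of a library held 19.7 ± 0.351% of its FPKM (SD, n = 3) and the 1000 most abundant 57.6 ± 0.403%.

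**Figure D1:**
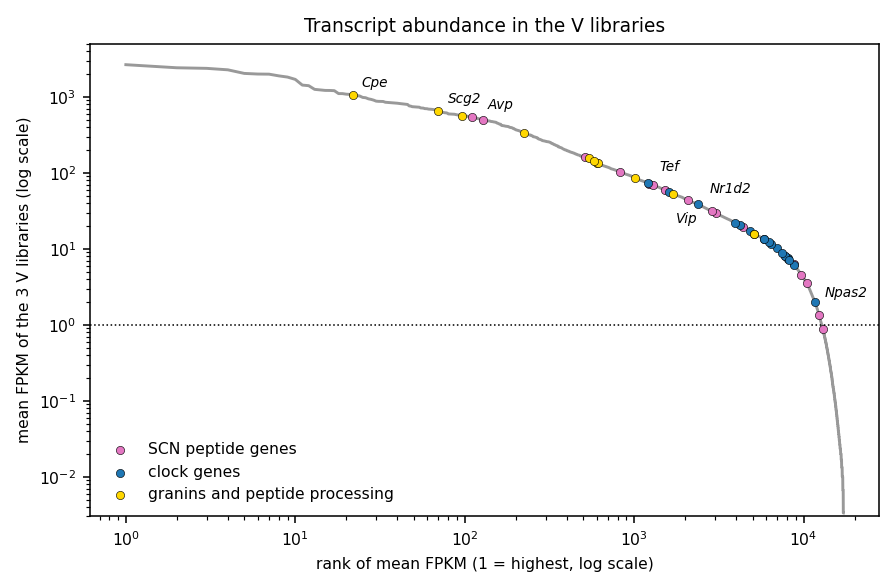
Mean FPKM of the 3 V libraries (vertical, log scale) against the rank of that mean (horizontal, log scale) for all genes, with SCN peptide genes, clock genes and peptide-processing genes as points and 1 FPKM as the dotted line. Cpe (rank 22) and Avp (rank 110) lie far up the curve, while the clock genes drawn lie between rank 1201 (Tef) and rank 11695 (Npas2).

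The most abundant mRNA was Cst3, the secreted protease inhibitor cystatin C, made largely by glia in brain, with 2518, 2631 and 2833 FPKM. Eef1a1, a translation elongation factor, had 2526, 2355 and 2386. Eef1a1 was the higher of the pair in replicate 2 and Cst3 in replicates 3 and 4. The 30 genes with the highest means included Ubb (ubiquitin), Ppia (cyclophilin A), Fth1 (ferritin heavy chain), Gapdh and Aldoa (glycolysis), Hspa8 (a chaperone), Tmsb4x (an actin-binding peptide) and the ribosomal Rpl41, Rplp1, Rpl23a, Rps15, Rpl13a, Rpl9 and Rps23. They also included Gnas (the stimulatory G protein alpha subunit), Nap1l5 and Nnat (both imprinted), Calm2 (calmodulin), Resp18 (an endocrine secretory protein), Cpe (a peptide-processing enzyme), Zwint, Atp6v0c (the vesicular proton pump), Tuba1a (tubulin) and Uchl1 (a neuronal ubiquitin hydrolase). Apoe, the lipid carrier of astrocytes, had 1791, 1804 and 1887 FPKM. Gm20594, a predicted gene with a listed length of 334 bases, had 2370.2, 2478 and 2292, and FPKM of so short a feature depends on the effective length that was used.

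Resp18 had 1163, 1035 and 1127 FPKM, and its libraries lay close together. Oxt, the oxytocin gene of the paraventricular and supraoptic nuclei, ranked 8 with 2075, 1545 and 2064 FPKM, and replicate 3 was the lowest. Mbp, the myelin basic protein of oligodendrocytes, ranked 11 with 1311, 1212 and 1778 FPKM, and replicate 4 was the highest. The 98 ribosomal protein genes together held 9.31% of FPKM and the 91 genes of the respiratory chain and ATP synthase 4.52%. Of the 94 ribosomal protein genes at 1 FPKM or more, 74 were highest in replicate 2, against 30.5% of all genes at that level. Their median deviation from the mean of the libraries, as log2 of FPKM + 0.1, was 0.06 in replicate 2, -0.04 in replicate 3 and -0.02 in replicate 4.

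Clock genes were of middling abundance. All 20 genes of the core loop and its stabilising loops had a mean of 1 FPKM or more, against 74.6% of all listed genes. Among them Tef, a D-box activator, was the highest at 72.0, 76.1 and 73.3 FPKM (rank 1201). Dbp, the classic D-box output factor, had 52.5, 57.5 and 57.9. Hlf, the third member of that family, had 16.9, 16.9 and 17.5. Nfil3, the repressor of the same D-box elements, had 7.27, 7.73 and 6.41. The ranges of these 4 genes do not overlap, and the 3 activators stood above their repressor in every library.

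Of the REV-ERB and ROR receptors, which compete for the same response elements, Nr1d2 (REV-ERBβ) had 38.8, 39.7 and 37.0 FPKM. Nr1d1 (REV-ERBα) had 21.1, 23.4 and 21.3. Nr1d2 stood above Nr1d1 in each library, with a ratio of 1.76 ± 0.0748. Expected counts of Nr1d1 were not whole (1005.27, 1109.55 and 898.56). Some of its reads were therefore shared out with another gene, and its level and this ratio are uncertain to that extent. Of the ROR activators, Rora had 8.11, 9.19 and 7.04 FPKM, the highest in replicate 3, and Rorb a mean of 6.16 ± 0.297. These 4 genes are named from the highest to the lowest, and no neighbouring pair overlapped. Rora had a wider spread than the other three, with a CV of 13.2%.

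On the positive arm, Clock had 11.5, 12.1 and 11.0 FPKM. Arntl, the gene of its partner, had 10.2, 10.5 and 9.65. Npas2, which can stand in for CLOCK, had 1.79, 1.92 and 2.22. Clock exceeded Npas2 by a ratio of 5.90 ± 0.827, and both partners lay above Npas2 in every library. Of the repressors, Cry2 had 20.8, 19.7 and 20.6 FPKM and stood above the rest without overlap. Per1, the period gene that responds to light, had 13.6, 13.5 and 12.8. Cry1, the stronger repressor of the 2 cryptochromes, had 11.8, 13.0 and 11.7. The ranges of Per1 and Cry1 overlapped. Per2 had 6.85, 8.24 and 7.44 FPKM, lowest in replicate 2. Per3 had 6.25, 7.90 and 7.84, again lowest in replicate 2. The ranges of Per2 and Per3 overlapped, and both lay below Cry1.

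Of the other repressors, Bhlhe40 (DEC1) had 15.9, 16.0 and 15.6 FPKM. Bhlhe41 (DEC2) had 12.3, 14.4 and 13.3, below Bhlhe40 in every library. Ciart (CHRONO, a repressor of BMAL1 and CLOCK) had 8.29, 9.09 and 9.06, below both.

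**Figure D2:**
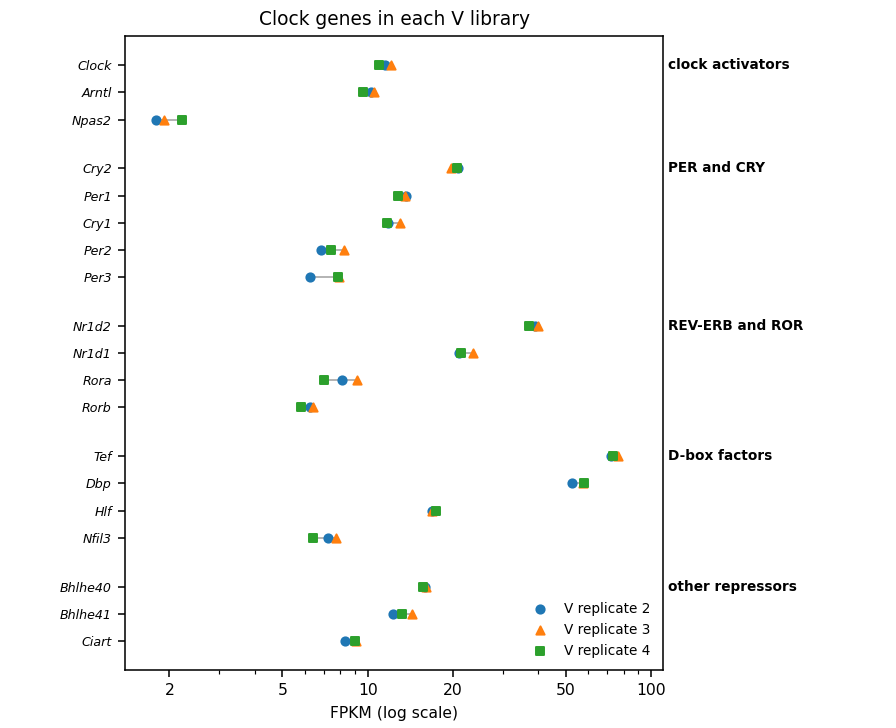
FPKM (horizontal, log scale) of 19 clock genes in V replicates 2, 3 and 4, grouped by their place in the loop and ordered by mean within a group; the grey line joins the lowest and highest library. Tef at 72.0, 76.1 and 73.3 FPKM lies at the right and Npas2 at 1.79, 1.92 and 2.22 at the left, and within most genes the 3 libraries almost coincide.

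The enzymes that set the stability of PER and CRY proteins were listed in every library. Csnk1d, the casein kinase 1 delta that phosphorylates PER, had 47.6, 48.8 and 48.8 FPKM, above Csnk1e with a mean of 29.9 ± 1.08. Fbxl21, an F-box protein that binds CRY, had 3.93, 3.99 and 3.19, far below both kinases in each library. The 8 kinase and ligase genes ran from 3.70 ± 0.446 to 48.4 ± 0.699 FPKM, and 7 of the 8 had a CV under 10%, against 81.0% of all genes at 1 FPKM or more. Over the clock lists, median CVs ran from 3.12% (kinases and ligases) to 6.01% (REV-ERB and ROR receptors), beside 5.26% for all genes at 1 FPKM or more.

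BMAL1 and CLOCK bind the E-box CACGTG. That motif, which reads the same on both strands, was searched in RefSeq promoter windows (build GRCm38.p6, from 250 bases before to 50 bases after a start site), together with the palindromic cyclic AMP response element TGACGTCA and, on either strand, the TATA box TATAAA. A window was found for 13608 of the listed genes. Of 17 clock genes with a window, 5 (29.4%) held the E-box (Bhlhe41, Ciart, Cry1, Per1 and Tef), against 10.6% of all listed genes with a window and 7.15% of all 32851 windows. None of the 17 held TATAAA, against 10.7% of all listed genes with a window. The windows of Per1 and Tef are shown as examples of a middling and an abundant clock gene with the motif. Each is on the plus strand with CACGTG in capitals: Per1 at chr11:69098699-69098998, with the motif starting -166 bases from the start site, and Tef at chr15:81811164-81811463, at -138. Per1 has a second window without the motif, and the other window of Tef holds it as well.
Per1: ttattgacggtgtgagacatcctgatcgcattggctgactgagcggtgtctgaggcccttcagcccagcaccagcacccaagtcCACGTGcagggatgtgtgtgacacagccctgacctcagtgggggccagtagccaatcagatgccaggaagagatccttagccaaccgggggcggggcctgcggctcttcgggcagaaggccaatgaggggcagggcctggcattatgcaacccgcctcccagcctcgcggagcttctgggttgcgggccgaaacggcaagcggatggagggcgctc
Tef: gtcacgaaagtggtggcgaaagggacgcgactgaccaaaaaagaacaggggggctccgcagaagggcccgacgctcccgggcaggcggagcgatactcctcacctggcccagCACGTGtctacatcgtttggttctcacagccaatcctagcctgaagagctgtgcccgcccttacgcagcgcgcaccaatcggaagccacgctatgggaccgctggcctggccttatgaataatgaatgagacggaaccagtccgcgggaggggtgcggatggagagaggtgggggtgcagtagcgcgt

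Genes at 1 FPKM or more held the E-box in 11.7% of cases and genes under 1 FPKM in 7.2%. The same 2 classes differed in base composition, with a median GC content of 61% and 53% of the window, and clock genes had 65.7%. A match is a stretch of letters and not a bound site, and the part of GC content in these shares was not tested.

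SCN peptide genes reached higher levels than clock genes and were less even between libraries, with a median CV of 17.0% against 5.26% for all genes at 1 FPKM or more. Of 17 peptides described in SCN neurons, 16 had a mean of 1 FPKM or more, against 74.6% of all listed genes. Avp, the vasopressin precursor, was the highest at 465, 489 and 675 FPKM (rank 110), with replicate 4 above the others. The punches also held Oxt of neighbouring nuclei, at rank 8. The part of tissue outside the SCN in the Avp level was not tested. Sst, somatostatin, had 416, 579 and 509.6, and its range overlaps that of Avp. Penk, the enkephalin precursor, had 182, 139.8 and 158 FPKM, above the next gene Gal in every library. Gal, galanin, had 136, 85.2 and 89.2 FPKM, highest in replicate 2. Nts, neurotensin, had 114, 53.2 and 49.3, and replicate 2 again lay above the others.

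Vip, the core peptide that couples SCN neurons, had 59.3, 36.9 and 35.9 FPKM (rank 2068). Replicate 2 was the highest, and the other two nearly coincided. Prok2, prokineticin 2, an output signal made mostly in the day, had 5.66, 2.22 and 2.68 FPKM, and replicate 2 again stood above the rest. Without replicate 2 the mean of Vip was 36.4 and that of Prok2 2.45, beside 44.0 ± 13.2 and 3.52 ± 1.87 with all libraries. Grp, gastrin-releasing peptide, had 6.78, 6.25 and 5.74 FPKM. Nms, neuromedin S of a broad SCN neuron class, had 8.18, 8.53 and 7.82 FPKM. Both were even between libraries, with CVs of 8.31% and 4.34%.

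The remaining SCN peptides were lower than Avp and Sst. Cartpt, which encodes CART peptide, had 66.1, 87.4 and 53.3 FPKM, highest in replicate 3, with a mean of 59.7 without it. Means were 59.3 ± 5.34 FPKM for Tac1 (substance P), 31.3 ± 4.47 for Adcyap1 (PACAP), 29.4 ± 5.23 for Cck and 19.4 ± 2.18 for Pnoc (nociceptin). Nmu, neuromedin U, had 2.09, 1.48 and 0.52 FPKM, with replicate 4 the lowest. Pthlh, a parathyroid hormone-like peptide, had a mean of 0.887 ± 0.14. The order at the middle of the list is loose: from Gal down to Cck every neighbouring pair overlapped. Of the 16 genes at 1 FPKM or more, 9 were highest in replicate 2, against 30.5% of all genes at that level. A CV of 30% or more was found for 4 (Nts, Vip, Prok2 and Nmu), against 1.19% of all genes at that level. With replicate 2 left out, the median CV of the SCN peptides was 7.65%, beside 4.34% for all genes at 1 FPKM or more. The median CV of the SCN peptides was 13.5% without replicate 3 and 19.4% without replicate 4.

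The windows of 3 peptide genes are shown because each holds a different one of the motifs. Avp is at chr2:130582539-130582838 on the minus strand, with the E-box CACGTG in capitals, starting -139 bases from the start site. Vip is at chr10:5638968-5639267 on the plus strand, with 3 TATAAA sites in capitals, from -157 to -30. Sst is at chr16:23890795-23891094 on the minus strand, with TGACGTCA in capitals at -48.
Avp: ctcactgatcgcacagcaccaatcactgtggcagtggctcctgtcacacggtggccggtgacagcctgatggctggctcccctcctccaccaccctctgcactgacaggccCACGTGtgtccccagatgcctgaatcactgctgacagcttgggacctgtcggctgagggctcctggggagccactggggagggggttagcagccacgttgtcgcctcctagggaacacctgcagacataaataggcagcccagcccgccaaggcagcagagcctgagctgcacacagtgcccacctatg
Vip: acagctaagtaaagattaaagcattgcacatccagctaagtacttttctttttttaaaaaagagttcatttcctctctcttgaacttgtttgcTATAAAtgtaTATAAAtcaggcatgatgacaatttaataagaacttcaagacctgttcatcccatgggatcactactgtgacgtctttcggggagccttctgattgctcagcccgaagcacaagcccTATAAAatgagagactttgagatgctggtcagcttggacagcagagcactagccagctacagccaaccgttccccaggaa
Sst: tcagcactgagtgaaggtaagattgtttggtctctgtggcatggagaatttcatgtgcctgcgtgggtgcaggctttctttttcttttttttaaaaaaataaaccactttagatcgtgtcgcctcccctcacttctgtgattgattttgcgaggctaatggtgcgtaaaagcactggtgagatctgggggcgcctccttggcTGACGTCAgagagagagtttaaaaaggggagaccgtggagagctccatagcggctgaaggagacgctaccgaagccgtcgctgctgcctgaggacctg

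Over 28 peptide genes with a window, 5 (17.9%) held the E-box (Avp, Cck, Nmu, Prok2 and Tac1), 9 (32.1%) held TATAAA and 2 (Cartpt and Sst) held TGACGTCA. The shares over all listed genes with a window were 10.6%, 10.7% and 3.05%.

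The punches also held peptides of nuclei around the SCN. Oxt stood above Avp in each library, with a ratio of 3.56 ± 0.785. Expected counts of Oxt and Avp were not whole numbers while their sums were (21160, 17046 and 20557), so reads were shared out between these similar, neighbouring genes and the split is uncertain. Trh, thyrotropin-releasing hormone of the paraventricular nucleus, had 254, 228 and 291 FPKM. Tac2 (neurokinin B) had 77.5, 62.2 and 56.0, highest in replicate 2. Pdyn (dynorphin) had 22.6, 25.9 and 21.7, with its libraries close together.

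Other peptides of the surrounding hypothalamus were high in different libraries. Kiss1, kisspeptin, had 25.6, 9.12 and 12.6 FPKM, highest in replicate 2. Crh, corticotropin-releasing hormone, had 18.3, 8.09 and 12.2, also highest in replicate 2. Hcrt, the orexin precursor of the lateral hypothalamus, had 1.16, 19.4 and 16.8, with replicate 2 far below the others. Gnrh1, gonadotropin-releasing hormone of the preoptic area, had 8.21, 4.94 and 17.2, with replicate 4 the highest. Npy, of arcuate neurons that drive feeding, had 11.1, 42.4 and 12.9 FPKM. Agrp, of the same neurons, had 0.6, 5.38 and 0.78. Both were highest in replicate 3, and without it their means were 12.02 and 0.69. Without replicate 3 the mean of Pomc was 15.1 in place of 119.5 ± 181 and that of Pmch 27.4 in place of 128 ± 175. Of the 15 neighbouring peptides at 1 FPKM or more, 10 had a CV of 30% or more, against 1.19% of all genes at that level, and Agrp is among the 15 only through replicate 3. Their median CV was 46.1%. Leaving out replicate 3 gave a median of 18.5%, beside 4.42% for all genes at 1 FPKM or more. Leaving out replicate 2 gave 28.5% for these peptides, and leaving out replicate 4 gave 54.7%.

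**Figure D3:**
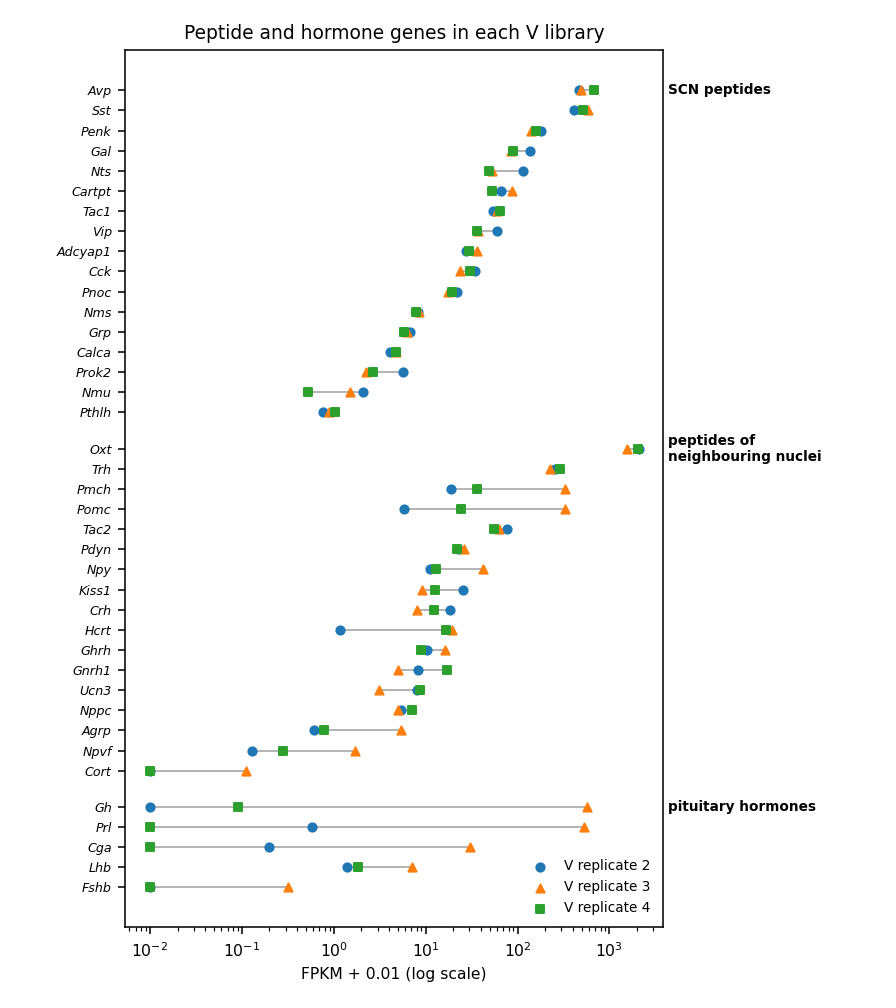
FPKM + 0.01 (horizontal, log scale) of SCN peptides, peptides of neighbouring nuclei and pituitary hormones in V replicates 2, 3 and 4; the grey line joins the lowest and highest library. Avp, Sst and Oxt have all 3 libraries near each other, whereas for Pmch, Pomc, Gh and Prl replicate 3 alone lies far to the right (0, 567 and 0.08 FPKM for Gh).

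Genes of the machinery that packs and cuts these peptides were abundant. Cpe, carboxypeptidase E, had 1095, 1015 and 1077 FPKM. Scg2, a granin of dense-core vesicles, had 709, 668 and 609. Scg5, the chaperone of convertase 2, had 338, 335 and 339, nearly equal in the 3 libraries. Pcsk1n, the convertase inhibitor proSAAS, had a mean of 566 ± 9.95 FPKM. Pcsk2, convertase 2 itself, had a mean of 53.6 ± 0.951, above Pcsk1 at 15.9 ± 1.202. All 11 processing genes had a CV under 10%, as did 81.0% of all genes at 1 FPKM or more. Their median CV of 3.94% was near the 3.47% of all genes from 100 to 1000 FPKM.

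Receptors of SCN peptides spanned a wide range of levels, from 0.0267 ± 0.0289 (Avpr1b) to 97.0 ± 10.7 FPKM (Ntsr2). Of 29 such receptors, 20 had a mean of 1 FPKM or more, against 74.6% of all listed genes. Ntsr2, a neurotensin receptor found mainly in astrocytes, was the highest at 91.2, 90.5 and 109 FPKM. Adcyap1r1, the PACAP receptor PAC1, had 64.8, 64.0 and 66.9, even across libraries. Oprl1, the nociceptin receptor, had a mean of 57.2 ± 1.96, Calcr, the calcitonin receptor, 25.8 ± 3.21, and Gpr176, an orphan receptor of the SCN, 6.88 ± 0.248. Vipr2, the VIP receptor required for coupling of SCN neurons, had 4.12, 4.97 and 3.79 FPKM. Prokr2, the prokineticin receptor, had 3.98, 4.78 and 3.98, and its range overlaps that of Vipr2. Avpr1a, the main vasopressin receptor of the SCN, had 3.28, 2.86 and 3.16. Grpr, the receptor of gastrin-releasing peptide, was low at 0.23, 0.23 and 0.18.

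As ratios of FPKM within a library, Avp exceeded Avpr1a by 175 ± 36.3, Vip exceeded Vipr2 by 10.4 ± 3.58 and Grp exceeded Grpr by 29.5 ± 2.36. Gal exceeded Galr1 by 45.4 ± 7.62 and Nms exceeded Nmur2 by 6.83 ± 1.402. Other pairs ran the opposite way: the ratio of Adcyap1 to Adcyap1r1 was 0.48 ± 0.0756 and that of Pnoc to Oprl1 0.341 ± 0.045, below 1 in each library. The ratio of Prok2 to Prokr2 crossed 1, at 1.42, 0.464 and 0.673, with replicate 2 alone above. PACAP also reaches the SCN from the retina, whose own mRNA a punch does not hold.

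Of 21 receptors of other hypothalamic peptides and hormones, 19 had a mean of 1 FPKM or more, against 74.6% of all listed genes. Nr3c1, the glucocorticoid receptor, led at 20.6, 21.1 and 19.0 FPKM. Npy2r, a neuropeptide Y receptor, had a mean of 11.0 ± 1.31. Mchr1, the receptor of melanin-concentrating hormone, had 7.42, 7.35 and 8.92. Esr1, the estrogen receptor alpha, had 8.64, 5.96 and 6.22 FPKM, highest in replicate 2. Lepr, the leptin receptor, stayed under 1 at 0.64, 0.78 and 0.66. Mchr1 was highest in replicate 4, while Pmch, the gene of its ligand, was highest in replicate 3.

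Genes of GABA synthesis and transport had a median CV of 4.23% over 8 genes, beside 5.26% for all genes at 1 FPKM or more. Their means ran from 18.3 to 149 FPKM. All genes from 10 to 100 FPKM had a median CV of 4.16% and those from 100 to 1000 one of 3.47%, so these 8 were not more even than genes of like level. Gad1, a GABA-making enzyme, had 155, 148 and 144 FPKM. Gad2, its sister enzyme, had 122, 111 and 103, below Gad1 in each library at a ratio of 1.33 ± 0.0601. Slc32a1, the vesicular GABA transporter, had 55.1, 52.3 and 52.3. Slc6a11 (GAT3, an uptake carrier of glia) had 141, 149 and 156. The ratio of the chloride exporter Slc12a5 to the importer Slc12a2 was 4.44 ± 0.211, from means of 81.0 ± 2.30 and 18.3 ± 1.38 FPKM. All 8 had a CV under 10%, as did 81.0% of all genes at 1 FPKM or more.

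Of GABA receptor subunits, Gabbr1 had 199, 190.3 and 187 FPKM, well above its obligate partner Gabbr2 at 16.1, 15.6 and 15.3. Gabra3, of ionotropic receptors, had a mean of 58.6 ± 2.74 FPKM. Gabrq, a theta subunit enriched in hypothalamus and monoamine nuclei, had a mean of 29.9 ± 3.11. Gabrd, which forms tonic receptors, was under 1 at 0.63, 0.57 and 0.85. Gabra6, the subunit of cerebellar granule cells, had 0, 0.02 and 0. In all, 15 of 17 subunits had a mean of 1 FPKM or more, against 74.6% of all listed genes.

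The 23 glutamate receptor genes with a row had a median of 9.48 FPKM, against 27.3 for the GABA receptor subunits. Gria1, an AMPA receptor subunit, had 91.2, 92.5 and 92.9 FPKM. Grin1, the obligate NMDA subunit, had 75.7, 72.7 and 76.0. Means were 56.0 ± 3.67 for Gria2, 40.2 ± 1.95 for Gria4 and 36.8 ± 1.03 for the kainate subunit Grik5. Among NMDA partners, Grin2d had 5.58, 5.19 and 6.05 FPKM. Grin2c had a mean of 4.49 ± 0.365. Grin2b had 0.9, 0.9 and 0.7, and Grin2a a mean of 0.4 ± 0.0693, both below Grin2d and Grin2c in every library. Grin2b rests on 119, 118 and 82 expected counts over a listed length of 7515 bases, so the annotated length bears on its FPKM. Of the 23, 20 had a mean of 1 FPKM or more, beside the same 74.6%.

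Slc17a6, the vesicular glutamate transporter of hypothalamic and thalamic neurons, had 59.4, 63.3 and 59.99 FPKM. Slc17a7, that of cortex, had 0.62, 0.37 and 0.59. Gad1 exceeded Slc17a6 by a ratio of 2.45 ± 0.148, even across libraries. Of the astrocyte glutamate carriers, Slc1a3 had 177, 193 and 186 FPKM and Slc1a2 a mean of 97.9 ± 3.87.

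Receptors for amines, acetylcholine, adenosine and melatonin had 27 of 42 genes at 1 FPKM or more, against 74.6% of all listed genes. The highest was Hrh3, a histamine autoreceptor, with 24.5, 27.6 and 26.1 FPKM. Next came, by mean, the serotonin receptor Htr2c with 21.7 ± 0.819, the nicotinic subunit Chrnb2 with 18.1 ± 0.168 and the adenosine A1 receptor Adora1 with 17.4 ± 1.13 FPKM. Htr7, a serotonin receptor through which the raphe can shift the clock, had 13.5, 12.1 and 14.2 FPKM. Mtnr1a, the melatonin MT1 receptor, had 0.76, 0.57 and 0.5, under 1 in each library. Drd1, a dopamine receptor of the SCN, had 2.52, 3.29 and 2.52.

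Of 11 regulators of G-protein signalling, Rgs10 was the highest at 134, 109.7 and 124 FPKM, followed by means of 67.5 ± 3.93 for Rgs4 and 41.8 ± 0.756 for Rgs2. Rgs16 lay in the middle of the list, beside Rgs7 (26.3 ± 1.13) and Rgs17 (24.9 ± 0.828). Immediate early genes, which light and activity induce, were led by Egr1. Egr1 had 28.4, 26.9 and 22.2 FPKM, lowest in replicate 4. Fos had 18.7, 15.0 and 15.8, highest in replicate 2. Means were 16.8 ± 0.832 for Jun, 2.96 ± 0.344 for Npas4 and 0.48 ± 0.178 for Egr2. Of the 16, 15 had a mean of 1 FPKM or more, against 74.6% of all listed genes.

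Ion channels were listed in large families with few high members. Of 88 Kcn genes listed, 63 had a mean of 1 FPKM or more, a share near the 74.6% of all listed genes. Kcnj10, the inward rectifier of astrocytes, was the highest at 63.8, 64.1 and 70.8 FPKM. The channel-interacting proteins followed, with means of 48.1 ± 1.48 for Kcnip4 and 39.2 ± 0.617 for Kcnip1. The fast Kv3 channels, which narrow action potentials, had 31.4 ± 1.59 (Kcnc4) and 29.4 ± 1.55 FPKM (Kcnc1). Each of these had its 3 libraries close together.

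Among sodium channel genes, the auxiliary subunit Scn2b had 54.0, 54.4 and 55.6 FPKM, and Scn3b, also auxiliary, a mean of 35.2 ± 1.12. The pore subunits Scn2a (26.0 ± 1.70), Scn1a (12.6 ± 0.497) and Scn8a (8.97 ± 0.303) were below both in every library. Of 26 Cacn genes, 21 were at 1 FPKM or more, against 74.6% of all listed genes, and the 10 highest were all auxiliary subunits. Cacnb3, a beta subunit, had 36.5, 36.9 and 39.7 FPKM. Hcn2, a pacemaker channel opened by hyperpolarisation, had 37.6, 38.5 and 45.5 FPKM, above Hcn3 (11.2 ± 0.572) and Hcn4 (1.27 ± 0.21). Of 21 TRP channels, 11 were at 1 FPKM or more, against the same 74.6%, led by Trpv2 (14.2 ± 0.516) and Trpm7 (8.89 ± 0.275).

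Transcription factors that mark the SCN in development were listed at low to middling levels. Id4, an inhibitor of helix-loop-helix factors, had 55.9, 60.7 and 54.5 FPKM, and its relative Id2 a mean of 41.2 ± 3.02. Six3, a relative of Six6, had 14.4, 18.9 and 16.4, lowest in replicate 2. Means were 12.8 ± 1.37 for Vax1, 10.5 ± 0.388 for Tshz2 and 5.26 ± 0.549 for Nkx2-2. Zfhx3, a large zinc-finger homeobox factor that sets SCN period, had 4.25, 4.32 and 4.47 FPKM over a listed length of 16439 bases, with a CV of 2.59%. Rax, a factor of the retina and of tanycytes, was low at 0.14, 0.82 and 0.08, with replicate 3 the highest and a mean of 0.11 without it. Of the 11, 10 had a mean of 1 FPKM or more, against 74.6% of all listed genes.

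All 12 factors of neighbouring regions were listed at a mean of 1 FPKM or more, against 74.6% of all listed genes. Otp, of neuroendocrine neurons in the paraventricular and nearby nuclei, had 15.3, 14.7 and 15.6 FPKM, and Sim1, of the same neurons, had a mean of 3.91 ± 0.199. Both were even. Lhx8, of ventral forebrain neurons, had 3.99, 2.52 and 1.71, and Lhx6 a mean of 4.37 ± 1.28. Both were highest in replicate 2. Fezf1, of the ventromedial nucleus, had 6.77, 13.6 and 10.7 FPKM, the lowest in replicate 2. Of the 12 factors, 4 were highest in replicate 2, 4 in replicate 3 and 4 in replicate 4, against 30.5%, 35.3% and 34.2% of all genes at that level. The part of neighbouring tissue in the peptide levels was not tested.

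Over all 589 genes that the authors' annotation places among sequence-specific transcription factors, 442 had a mean of 1 FPKM or more, a share near the 74.6% of all listed genes. Tsc22d1 had a mean of 264 ± 3.49 FPKM. Thra, the thyroid hormone receptor alpha, had 267, 250.4 and 273, and the 2 ranges overlap. Its expected counts were not whole (11308.7, 10537.5 and 10242.4), so some of its reads were shared out with another gene. Next came Tcf25, Nme2, Cnbp, Ctbp1, Nfe2l1, Atf4, Tceal1 and Olig1, from 216 ± 7.71 down to 78.5 ± 8.51. Tef was the next below these 10 and the highest clock gene in the class. Of 259 genes annotated as G-protein coupled receptors, 103 were at 1 FPKM or more, against 74.6% of all listed genes. The highest was Tubb3, a tubulin that the annotation places there, followed by Gpr37l1, an astrocyte receptor, at 114, 117 and 123 FPKM, then Adcyap1r1, Oprl1, Gpr162, Tm2d1, Gprc5b, Adgrg1, Adgrl1 and Adgrb2. The annotation is incomplete, since Gabbr1 is not among them.

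Markers of other cell types of brain tissue were also present. Pan-neuronal genes were even, with CVs from 1.67% to 5.44% and a summed level of 1786, 1816 and 1857 FPKM. Of the 7, 5 were highest in replicate 4, against 34.2% of all genes at 1 FPKM or more. Snap25, the widest of them, had 559.7, 624 and 599.9 FPKM, highest in replicate 3. All 8 astrocyte markers were at 1 FPKM or more, as were 74.6% of all listed genes. They summed to 1341, 1404 and 1492 FPKM, led by Glul at 434, 461 and 497. The members did not all follow that sum: 4 were highest in replicate 4, 2 in replicate 2 and 2 in replicate 3. Gfap, for one, had 118, 94.4 and 106 FPKM. Oligodendrocyte markers summed to 2464, 2386 and 3341, and all 8 were highest in replicate 4, against 34.2% of all genes at 1 FPKM or more. Mobp, a structural protein of myelin, had 86.0, 81.4 and 119 FPKM. Avp was also highest in replicate 4, and the part of myelinated tissue in its level was not tested.

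The 5 red-cell genes summed to 275, 472 and 300.2 FPKM and were all highest in replicate 3, against 35.3% of all genes. Hba-a1 had 87.6, 150.2 and 95.7 FPKM. These haemoglobin genes are near-identical copies, and the expected counts of Hba-a1 and Hba-a2 were not whole, so levels of single copies are uncertain. The 5 ependymal genes, of cells lining the ventricle, were also all highest in replicate 3, with sums of 178, 199 and 171. Foxj1, for one, had 16.1, 19.2 and 16.7 FPKM. Microglial markers summed to 137, 127 and 131, with C1qa at 47.3, 42.2 and 43.5. Of the choroid plexus, Ttr, its defining transcript, stayed under 1 at 0.59, 0.6 and 0.39 FPKM. In all, 2 of the 5 choroid plexus markers were at 1 or more, against 74.6% of all listed genes.

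**Figure D4:**
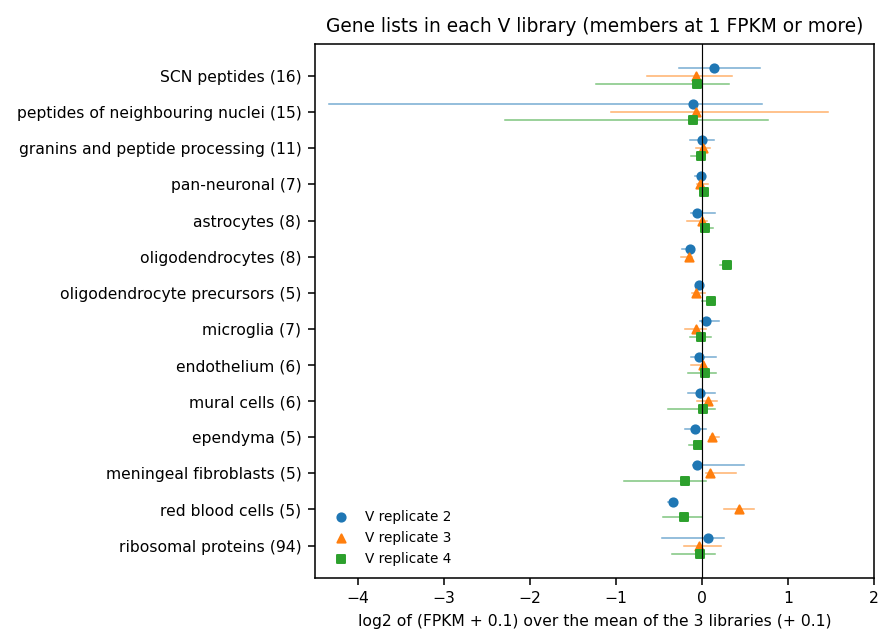
For 14 gene lists (members at 1 FPKM or more, number in brackets), the median over members of log2 of FPKM + 0.1 over the mean of the 3 libraries + 0.1 (points, by V replicate), with lines from the lowest to the highest member. Oligodendrocyte genes lie at 0.29 in replicate 4 and red-cell genes at 0.43 in replicate 3, while pan-neuronal and processing genes stay near 0 in all libraries.

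Across all genes the libraries differed little. For the 9433 genes at 5 FPKM or more the median CV was 4.45%, with a 10th to 90th percentile of 1.63% to 9.69%. The spread expected from counting error, 1 over the square root of the mean expected count, had a median of 3.34%. A CV of 3 libraries has a lower median than the spread behind it, so 3.34% set beside 4.45% overstates the part of counting. The spread left after removing counting error had a median of 2.72%. It was 3.95% after a correction for the low number of libraries that was added after the data were seen. The median CV was 7.65% from 1 to 10 FPKM, 4.16% from 10 to 100, 3.47% from 100 to 1000 and 4.26% for the 24 genes at 1000 or more.

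Of those 9433 genes, 32 (0.339%) had a CV of 30% or more. The 5 above 100% were Gh, Prl, Cga, Pomc and Pmch, with replicate 3 the highest for each. Replicate 3 was the library farthest from the others for 18 of the 32, replicate 2 for 9 and replicate 4 for 5. Over all 9433 genes those shares were 31.4%, 31.6% and 37.0%. Gh, Prl, Cga and Rbp4 reached a mean of 5 FPKM only through replicate 3, Alyref2 only through replicate 2, and Xlr3b, Bst2, Lyrm7 and Ifi27l2a only through replicate 4, so the threshold itself bears on that count. Without replicate 3, 18 of the 32 still had a CV of 30% or more. A further 12 of the 32 code for peptides of the hypothalamus or for haemoglobin: Npy, Hcrt, Gnrh1, Kiss1, Nts, Ucn3, Crh, Ghrh, Vip, Hbb-bt, Hba-a1 and Hba-a2. Pvalb, the calcium-binding parvalbumin, had 6.52, 10.3 and 14.2 FPKM. Nptx2, a neuronal pentraxin, had 5.83, 11.3 and 6.94, highest in replicate 3. Klk6, a protease of oligodendrocytes, had 5.27, 5.56 and 9.72, highest in replicate 4 as the myelin genes were.

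Other wide genes are members of repeated families. Tmem254b had 23.5, 4.19 and 41.2 FPKM. Its copy Tmem254c had 7.0, 31.8 and 8.94, highest in replicate 3, where Tmem254b was lowest, with a mean of 7.97 without it. Eno1b, a copy of the glycolytic Eno1, had 120.5, 59.8 and 124, lowest in replicate 3. Xlr3b, of an X-linked family, had 3.02, 1.51 and 10.5. For 8 of the 32 the expected counts were not whole in at least some library, so reads were shared between similar sequences. Over all listed genes, 9.65% to 10.2% of the values of a library were not whole. That share is per library and not over the 9433 genes, so whether such sharing is more common among wide genes was not tested. At the other end, the 10 genes with the lowest CV (2410004B18Rik, Prdx3, Mfn1, Tmem131, Pmpcb, Txnl4a, Bcap31, Nmt2, Izumo4 and Ier5) were chosen for it, and all lie below the CV that counting error alone gives. Of all 9433 genes, 3078 (32.6%) had an estimate of 0 for the spread beyond counting error. In simulated counts the estimate was 0 for 48.6% of genes at a true spread of 2% and for 27.2% at 5%. An estimate of 0 from 3 libraries therefore does not show that a gene has no such spread. Prdx3, a mitochondrial peroxidase, had 69.9, 69.9 and 69.8 FPKM.

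**Figure D5:**
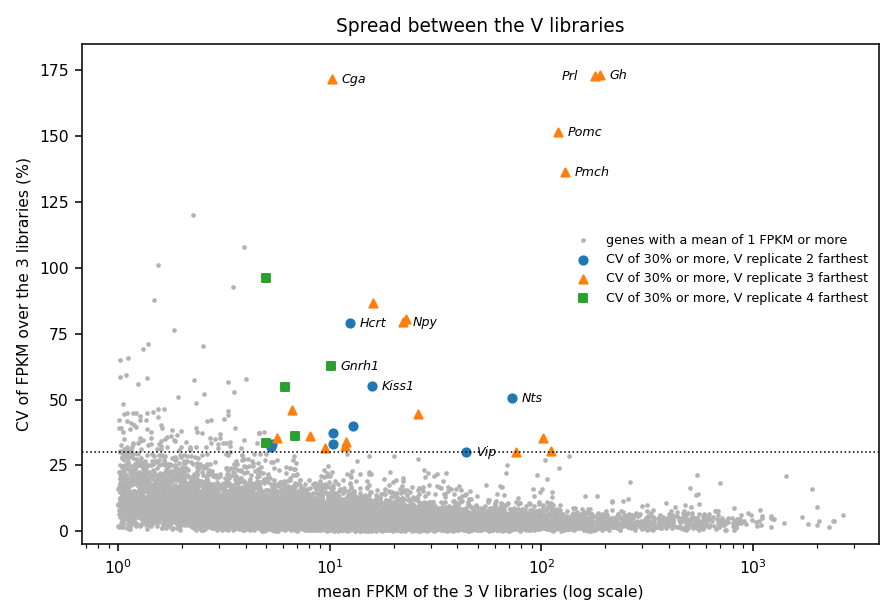
CV over the 3 V libraries (vertical, percent) against mean FPKM (horizontal, log scale) for genes at 1 FPKM or more, with the 32 genes at 5 FPKM or more and a CV of 30% or more (dotted line) marked by the library farthest from the others. Gh, Prl, Cga, Pomc and Pmch lie above 100%, far from the bulk with its median of 4.45%.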

How the data were processed

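RNA of SCN punches was sequenced, and 3 V libraries of 6 were used, grouped by title. The deposited tables give, per the file headers, an expected count, an FPKM value and a transcript length for each gene of a library. An expected count is the authors' estimate of reads and need not be whole: 9.65% to 10.2% of values were not. FPKM values deposited by the authors were used as they stand, and a gene without a row counted as 0. The submitters' processing notes name RSEM 1.2.12, Bowtie2 2.2.5, HISAT2 2.0.4, DESeq2, GATK, Cufflinks 2.2.1 and StringTie 1.0.4, and build mm10. The sources used here give neither the role of each tool nor whether strand was kept.

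No test was made, since the libraries form 1 group. Means, SDs, CVs and ranks were computed over the 3 libraries in Python 3.11.15. Ranges that overlap are called so from the lowest and highest library. Counting error was taken as 1 over the mean expected count after edgeR 4.0.16 scaling in R 4.3.3, with DESeq2 1.42.0 size factors as an alternative, and its removal was checked on simulated counts. At 5% true spread the median estimate was 3.63%, and 4.94% once corrected for the number of libraries. Depth of about the same size in each library (15729603 to 17780928 counts) means that a gene at 0 counts could hold up to 3, for counting error only.

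Named genes were the 30 most abundant, members of fixed lists, the 10 highest of each annotated class or symbol family, and the 20 most and 10 least variable genes at 5 FPKM or more. The remaining genes with a CV of 30% or more, and the pituitary genes, were named after their values were seen. Members and lists were chosen with earlier results of these data known. Alternatives changed thresholds, scaling, the ranking measure and the libraries included. The r1r2V libraries were not analysed here, and some listed genes are not reported here, though counts over lists include them.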

Additional observations from a re-analysis of the deposited data

How the results depend on the processing

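No paired analysis was possible because the V libraries form 1 group and no groups were compared. The 100 most abundant genes held 19.7% of FPKM but 14.1% of expected counts, which are not divided by length, and 13 of the 30 most abundant genes kept that place when ranked by mean expected count. Taking genes at 1 FPKM or more in place of 5 gave a median CV of 5.26% and 153 genes with a CV of 30% or more. Taking genes at 20 FPKM or more gave 3.73% and 12 genes. The excess spread over counting error was 3.95% in place of 2.72% with the added correction. Leaving out 1 library at a time gave a median CV of 3.32% to 3.76% and a spread beyond counting error of 0.913% to 1.62%; an SD of 2 libraries has a lower median by construction. With the added correction the spread beyond counting error was 3.53% to 4.27% when 1 library was left out. It gave 24 to 39 genes with a CV of 30% or more. The count of genes at 1 FPKM or more ran from 12556 to 14097 over all alternatives. Of the named genes at 1 FPKM or more, 13 moved by over 1.5-fold when a library was left out: Gnrh1, Tmem254b and Xlr3b without replicate 4, and Agrp, Cga, Gh, Lhb, Npy, Nr5a1, Pmch, Pomc, Prl and Tmem254c without replicate 3. A mean over 3 libraries cannot move by more than its SD when 1 is left out, so the other means were not shown to be stable by that measure. Depth limits genes under 1 FPKM, whose median CV was 43.3%. The median of 1 over the square root of their mean expected count was 44.7%. These are unlike measures, since a CV of 3 libraries has a lower median than the spread behind it. They do not show that counting error gives all of that spread.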
